A study of Saccharomyces cerevisiae with 6 samples.

Results

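The 8 glutaredoxin genes of the budding yeast Saccharomyces cerevisiae, GRX1 to GRX8, were followed among 5449 genes measured in cells with the R78A form of histone H2A and in cells with wild-type H2A. The genes were chosen by name, as every GRX symbol in the annotation of the array. The only measured value in that choice was the mean signal that decides between probe sets of a gene, and it decided nothing here, because each of the 8 genes has 1 probe set. The family was nevertheless singled out with its differences between the groups already known, so the adjusted p-values given for its members place them among all genes and are not independent evidence.

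In the mutant, H2A carries alanine at a position where wild-type H2A has arginine. The side chain lost is that of a sprocket arginine, which reaches into the minor groove of the DNA wrapped on the nucleosome, and the comparison asks which transcripts depend on it. There were 3 H2A R78A arrays and 3 wild-type arrays, all from cells taken in mid-log phase from YPD, a glucose-containing rich medium, at 30 °C. RNA was hybridised as biotin-labelled cRNA to one-colour Affymetrix arrays. The labels name neither the strain background nor the way in which the histone allele is carried. They also do not call the replicates separate cultures, so p-values rest on a spread between samples that may be technical only.

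Glutaredoxins are small thiol enzymes that use glutathione, the main low-molecular-weight thiol of the cell, as reductant. Those with a pair of cysteines in the active site reduce disulfides and remove glutathione from proteins. Those with a single active-site cysteine mostly bind iron-sulfur clusters together with glutathione, and several of them serve in cluster delivery or in sensing of iron. In yeast, Grx1, Grx2 and Grx8 belong to the first kind, Grx3, Grx4 and Grx5 to the second, and Grx6 and Grx7 are single-cysteine enzymes of the secretory pathway.

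The family did not move as a group. GRX8 rose, GRX4 fell, GRX5 was slightly lower, and the differences of the other 5 did not pass the threshold. Of the 8 genes 1 was higher in H2A R78A and 2 were lower at the threshold used throughout, an adjusted p of 0.05 (limma's moderated test, Benjamini-Hochberg adjustment over all genes). Over all genes tested 17.9% were higher and 9.18% lower, 27.1% in all, and with median centring of the arrays 14.9% and 16.1%. The median log2 difference of the 8 genes, H2A R78A minus wild type, was 0.09, against 0.02 for all genes. The mean signals of all 8 exceeded the background level of 232, the 25th percentile over all genes. A signal depends on the probes as well as the transcript, so the members' levels are not ranked against each other.

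**Figure D1:**
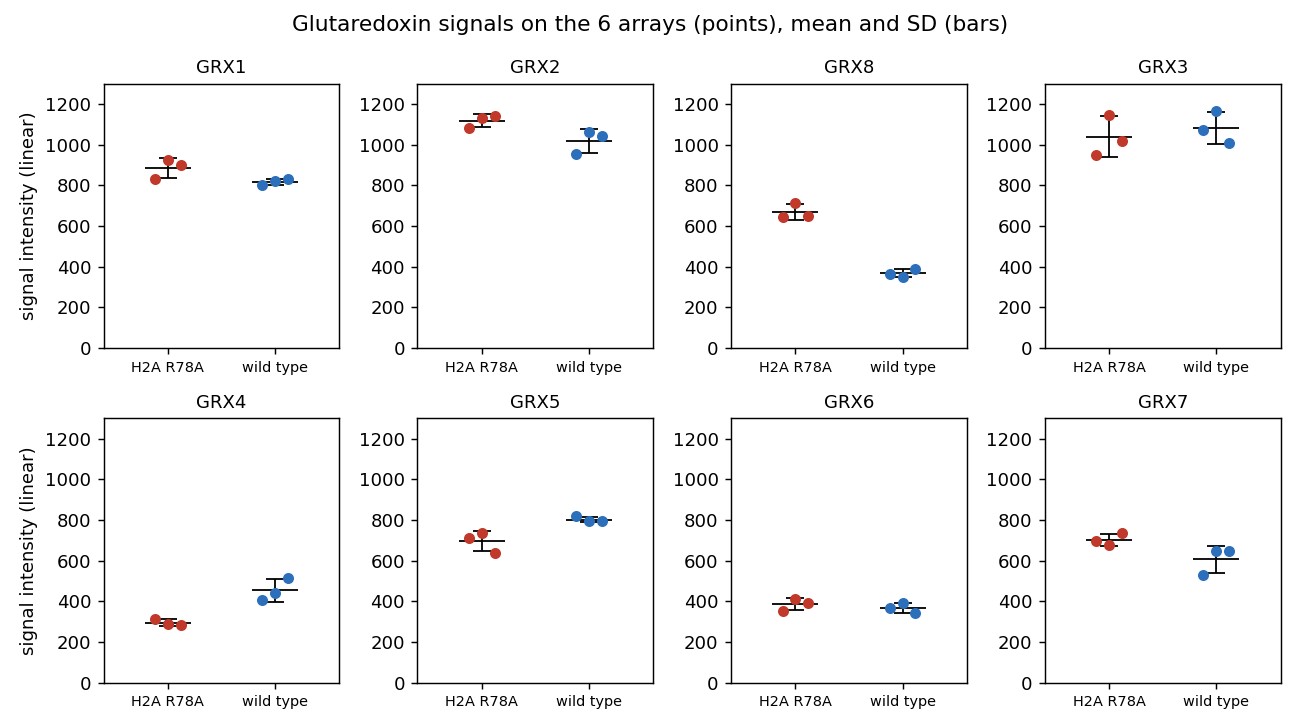
Signal intensity (linear scale, from 0) of each glutaredoxin gene on the 3 H2A R78A arrays (red, left) and the 3 wild-type arrays (blue, right); black bars are mean ± SD. GRX8 lies between 645 and 713 in the mutant and between 349 and 389 in wild type, and GRX4 between 286 and 315 in the mutant and between 408 and 516 in wild type.

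Among the glutaredoxins with an active-site pair of cysteines, GRX8 (YLR364W) stood out. Its product is a cytosolic protein with weak glutaredoxin activity. Its signal was 645, 713 and 649 on the mutant arrays, against 366, 349 and 389 on the wild-type arrays. The lowest mutant value lay far above the highest wild-type value. The means were 669 ± 37.9 in the mutant and 368 ± 19.7 in wild type (SD, n = 3 each), 1.82-fold higher in the mutant. The log2 difference was 0.86 ± 0.07 (SE; 95% interval 0.70 to 1.02; limma adjusted p = 2.51e-05). The difference of GRX8 ranked 216 from the highest of all genes tested and 43 from the highest among the 4086 genes above the background level, ranks that describe its place only.

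GRX1 (YCL035C) and GRX2 (YDR513W) encode the best-studied yeast glutaredoxins. Grx1 is cytosolic, and Grx2, which also has a mitochondrial form, carries most of the cell's classical glutaredoxin activity. GRX2 gave 1080.4 to 1141 in the mutant and 952 to 1061 in wild type, with means of 1118 ± 32.5 in the mutant and 1018 ± 58.1 in wild type. The 2 groups did not overlap, yet the log2 difference of 0.14 ± 0.06 (SE) did not pass (limma adjusted p = 0.119). It passed with the replicate number as a block (adjusted p = 0.0442) and after quantile normalization, where it was 0.23 (adjusted p = 0.0147). With median centring it was 0.08 (limma adjusted p = 0.429), and without wild-type replicate 1 it was 0.09 (limma adjusted p = 0.386).

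GRX1 gave 829.3 to 926 in the mutant and 799 to 829.2 in wild type. The lowest mutant array and the highest wild-type array were thus almost level. Means were 885 ± 49.9 in the mutant and 817 ± 15.6 in wild type, and the log2 difference of 0.11 (95% interval -0.02 to 0.25) did not pass (limma adjusted p = 0.193). With cyclic loess normalization it was 0.18 and just passed (limma adjusted p = 0.0495), and with median centring it was 0.05 (limma adjusted p = 0.589). Both genes thus had positive differences well below that of GRX8, and for neither did the call hold over the scalings tried.

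GRX3 (YDR098C) and GRX4 (YER174C) encode a pair of single-cysteine proteins of the cytosol and nucleus with a thioredoxin-like domain in front of the glutaredoxin domain. With Fra1 and Fra2 (the product of BOL2) they pass the state of the iron-sulfur cluster supply to Aft1, the activator of the iron uptake genes, and restrain it when iron is sufficient. GRX4 had signals of 315, 289 and 286 on the mutant arrays, against 408, 440.5 and 516 on the wild-type arrays. All mutant values lay below all wild-type values, and the wild-type arrays were the more scattered. The means were 297 ± 15.6 in the mutant and 455 ± 55.5 in wild type (SD, n = 3 each), 1.53-fold lower in the mutant. GRX4 thus fell by 0.61 ± 0.10 on the log2 scale (SE; 95% interval -0.82 to -0.40; limma adjusted p = 0.00106).

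The difference of GRX4 ranked 15 from the lowest of all genes tested and 7 from the lowest among those above the background level. Wild-type replicate 3 had the highest GRX4 signal, and without that array the log2 difference was -0.52 (limma adjusted p = 0.00283). After quantile normalization it was -0.70 (limma adjusted p = 5.78e-04).

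The partner gene GRX3 gave 951, 1148 and 1019 in the mutant, against 1070.0, 1164 and 1009.8 in wild type. The groups overlapped over most of their range. Means were 1039 ± 100.2 in the mutant and 1081 ± 77.5 in wild type, with a log2 difference of -0.06 (95% interval -0.23 to 0.12; limma adjusted p = 0.611). The sign of this small difference turned after quantile normalization (0.03) and with cyclic loess (0.04).

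GRX5 (YPL059W) encodes the mitochondrial single-cysteine glutaredoxin that passes iron-sulfur clusters on from the scaffold proteins of the matrix. Its signal was 714, 738 and 641 on the mutant arrays, against 819, 796 and 794 on the wild-type arrays. The groups did not overlap, and the mutant arrays were the more spread. Means were 698 ± 50.7 in the mutant and 803 ± 13.7 in wild type. The log2 difference of -0.21 ± 0.07 (SE) lay just inside the threshold (limma adjusted p = 0.0447). The call ended after quantile normalization (-0.17, limma adjusted p = 0.0981) and with every single array removed except mutant replicate 2 (limma adjusted p from 0.0724 to 0.188).

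GRX6 (YDL010W) and GRX7 (YBR014C) encode the membrane-anchored glutaredoxins of the endoplasmic reticulum and Golgi. GRX7 gave 677 to 736 in the mutant and 531 to 647 in wild type, without overlap, and means of 703 ± 30.3 in the mutant and 608 ± 66.7 in wild type. Wild-type replicate 1, at 531, lay well below the other wild-type arrays, and without it the log2 difference was 0.12 in place of 0.21. The difference of 0.21 ± 0.08 (SE) did not pass (limma adjusted p = 0.0833), and passed with the replicate block (limma adjusted p = 0.0341) and with array weights (0.32, limma adjusted p = 0.00694). GRX6 gave 353 to 412 in the mutant and 342 to 391 in wild type, with overlapping groups. Its log2 difference was 0.07 (95% interval -0.12 to 0.26; limma adjusted p = 0.556), and 0.02 to 0.14 with an array left out.

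**Figure D2:**
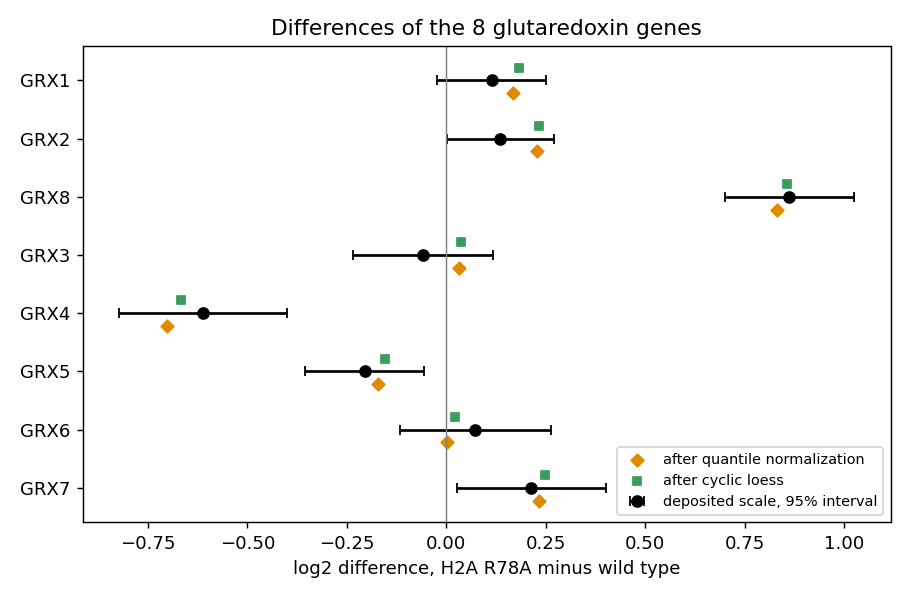
Log2 difference, H2A R78A minus wild type, of the 8 glutaredoxin genes on the deposited scale (black points with the 95% interval of limma), after quantile normalization (orange) and after cyclic loess (green). GRX8 (0.86) and GRX4 (-0.61) lie away from 0 on all 3 scales, whereas GRX3 changes sign between them.

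Over the 8 genes, the groups did not overlap for 6, 4 of them higher and 2 lower in the mutant, where 43.1% of all genes tested showed no overlap. GRX8 and GRX4 differed by at least 1.5-fold, as did 8.66% of all genes. With the replicate number as a block 3 members were higher (GRX2, GRX7 and GRX8) and 2 lower (GRX4 and GRX5), against 23.7% and 15.7% of all genes. After quantile normalization 2 were higher (GRX2 and GRX8) and 1 lower (GRX4), against 10.5% and 9.82% of all genes. GRX8 and GRX4 passed with the same sign under each of the 16 alternatives tried, some of which could change only the adjusted p. On the deposited scale the differences varied with signal strength. The 1363 genes below the background level had a median difference of 0.28 and those above it one of -0.02, against -0.05 and -0.02 after quantile normalization. That normalization gives all arrays the same distribution of values, and the cause of the higher median among dim genes was not tested. Within-group coefficients of variation of the members ran from 1.71% (GRX5 in wild type) to 12.2% (GRX4 in wild type).

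**Figure D3:**
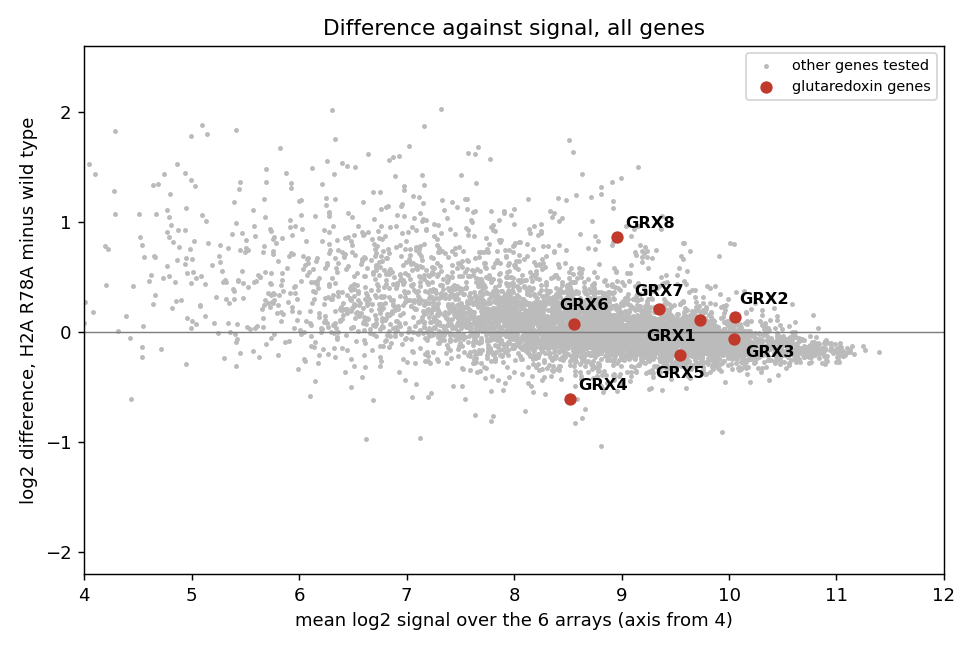
Log2 difference, H2A R78A minus wild type, against mean log2 signal over the 6 arrays for the genes tested (grey; 33 genes with a mean log2 signal of at most 4 are outside the axis), with the glutaredoxin genes in red. GRX8 at 0.86 and GRX4 at -0.61 rank 43 from the highest and 7 from the lowest among genes above the background level, and the other members lie nearer 0.

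The paralog pairs were also compared within each array, by the log2 signal of one gene minus that of its partner. A factor common to all genes of an array cancels in this ratio, but a shift that varies with signal strength does not. The level of such a ratio reflects the probes, and only its difference between the genotypes is read here. GRX4 minus GRX3 was -1.60, -1.99 and -1.83 on the mutant arrays, against -1.39, -1.40 and -0.97 on the wild-type arrays. All mutant ratios were below all wild-type ratios. The difference was -0.55, which gave p = 0.1 in an exact two-sided permutation test, the smallest value that 3 arrays against 3 allow (0.3 after Benjamini-Hochberg adjustment over the 3 pairs). This ratio difference was -0.73 after quantile normalization and -0.70 with cyclic loess.

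GRX1 minus GRX2 averaged -0.34 ± 0.05 in the mutant and -0.32 ± 0.06 in wild type (SD, n = 3 each; exact permutation p = 0.6, adjusted p = 0.6). Its difference of -0.02 was smaller than the spread between arrays, and was -0.06 after quantile normalization and -0.05 with cyclic loess. GRX6 minus GRX7 averaged -0.87 ± 0.14 in the mutant and -0.73 ± 0.19 in wild type (exact permutation p = 0.5, adjusted p = 0.6). On the deposited scale the difference of -0.14 was also within the spread between arrays. It was -0.04 without wild-type replicate 1 and -0.24 without wild-type replicate 3. After quantile normalization it was -0.23, and with cyclic loess -0.22.

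**Figure D4:**
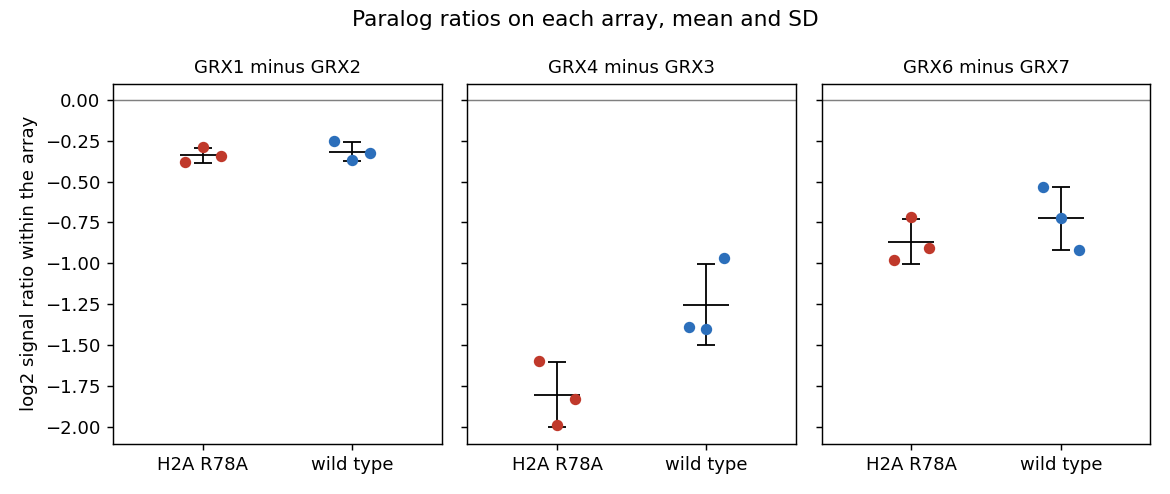
Log2 ratio of the signals of paralogous glutaredoxin genes within each array, for H2A R78A (red, left) and wild type (blue, right), with mean ± SD. The groups separate for GRX4 minus GRX3, where the lowest wild-type ratio is -1.40 and the highest mutant ratio -1.60, and overlap for the other pairs.

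Genes whose signals followed those of GRX8 and GRX4 most closely over the 6 arrays were looked up among 4078 genes above the background level. These correlations mostly restate the difference between the genotypes, and the arrays share their scaling. For GRX8 they were UGA1 (r = 0.998), for the transaminase that uses gamma-aminobutyrate, SOL4 (r = 0.998), for a 6-phosphogluconolactonase, and BIO2 (r = 0.997), for biotin synthase. UGA1 gave 868, 1011 and 876 in the mutant, against 488, 448 and 499.7 in wild type. SOL4 gave 459, 517 and 477 in the mutant, against 241, 235 and 247 in wild type. Like GRX8, both had their highest value on mutant replicate 2 and their lowest on wild-type replicate 2. Because both were chosen by correlation over these same arrays, that match is not separate evidence.

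For GRX4 they were MNN9 (r = 0.992), for a subunit of Golgi mannosyltransferase complexes, PEX34 (r = 0.981), for a peroxisomal membrane protein, and MID2 (r = 0.980), for a cell wall stress sensor. MNN9 gave 814, 802 and 799 in the mutant and 865, 873 and 888 in wild type, a far smaller step than that of GRX4. Its log2 difference of -0.12 did not pass (limma adjusted p = 0.121), and those of PEX34 (-0.28) and MID2 (-0.30) did (limma adjusted p = 0.00451 and 0.0145), MID2 not without mutant replicate 3 (0.0697).

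Glutathione, the substrate of the glutaredoxins, is made, reduced and used by a set of 17 measured genes. Of these 5 were higher and 3 lower in the mutant, where 17.9% and 9.18% of all genes were, with a median log2 difference of 0.03 against 0.02 for all genes. Without mutant replicate 1 or 3 or wild-type replicate 1 or 2, the genes higher numbered 3. The shares of all genes higher were 12.5%, 12.7%, 14.0% and 14.7% in the same order. With genes below the background level left out, 2 of 13 were higher, against 10.3% of all genes kept. Only 1, GPX2, was lower whichever array was left out. ECM4, for a glutathione transferase of the omega class, gave 706, 802 and 693 in the mutant and 317, 331 and 315 in wild type, 2.28-fold higher (limma adjusted p = 5.71e-06). GPX1, for a glutathione peroxidase, averaged 263 ± 29.8 in the mutant and 119.6 ± 9.57 in wild type (log2 difference 1.14, limma adjusted p = 4.98e-05). GTT2, for another glutathione transferase, averaged 209.8 ± 10.8 in the mutant and 117 ± 11.6 in wild type (0.85, limma adjusted p = 2.57e-04). GPX1 and GTT2 had mean signals below the background level, and GTT2 had a difference of 0.56 after quantile normalization, where it still passed. GPX2, for another glutathione peroxidase, was lower, averaging 843 ± 27.0 in the mutant and 1039 ± 35.5 in wild type (-0.30, limma adjusted p = 0.00341).

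The synthesis and reduction genes moved in both directions. GSH1, for the first enzyme of glutathione synthesis, was higher (429 ± 33.8 in the mutant and 336 ± 31.3 in wild type, log2 difference 0.35). GSH2, for the next enzyme, had a log2 difference of -0.21, and GLR1, for glutathione reductase, one of -0.18. GLR1 did not pass after quantile normalization (-0.07, limma adjusted p = 0.306) or with cyclic loess (-0.06, limma adjusted p = 0.375). GPX2 and these 3 genes were picked out after their values were seen. The calls of GSH2 and GLR1 ended without any one of the 6 arrays (limma adjusted p up to 0.176 and 0.113), and that of GSH1 without mutant replicate 1 or 3 or wild-type replicate 1 or 2 (up to 0.0815). GTO1, for a peroxisomal glutathione transferase, had a mean signal below the background level. It was higher by a log2 difference of 0.36, a call that ended after quantile normalization (limma adjusted p = 0.422). The GTO1 call also ended without any one array except mutant replicate 2 (limma adjusted p from 0.0562 to 0.132).

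Of 28 measured genes for iron-sulfur cluster assembly in mitochondria and cytosol, where Grx5 and the pair of Grx3 and Grx4 act, 3 were higher and 1 was lower, both smaller shares than the 17.9% and 9.18% of all genes. The median log2 difference was -0.04. With the replicate block 4 were lower, without mutant replicate 3 there were 0 and without wild-type replicate 3 there were 2. The shares of all genes lower were 15.7%, 3.56% and 7.74% in the same order. ERV1, for a thiol oxidase of the mitochondrial intermembrane space, gave 251, 240.5 and 221 in the mutant and 158, 149 and 144 in wild type (log2 difference 0.66, limma adjusted p = 6.12e-04). NBP35, for a scaffold of the cytosolic machinery, gave 279, 266 and 245 in the mutant and 163, 182 and 166 in wild type (0.63, limma adjusted p = 8.00e-04). Both were below the background level in mean signal, and ERV1 had a difference of 0.42 after quantile normalization, where it still passed. LTO1, for an adaptor that takes clusters to the ribosome recycling factor Rli1, had a log2 difference of 0.30, and ATM1, for the exporter of the inner mitochondrial membrane, one of -0.23.

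The LTO1 and ATM1 calls depended on single arrays and on the scale. LTO1 did not pass after quantile normalization (limma adjusted p = 0.182, and 0.134 with the block), with cyclic loess (0.117) or with median centring (0.0553). Nor did LTO1 pass with low values raised to the 10th percentile (0.0604), without mutant replicate 3 (0.114) or without wild-type replicate 3 (0.0626). ATM1 did not pass without mutant replicate 2 (limma adjusted p = 0.0504), mutant replicate 3 (0.0651) or wild-type replicate 2 (0.0621), nor with cyclic loess (0.0629). The scaffold genes ISU1 and ISU2, from which Grx5 takes clusters, had log2 differences of -0.18 and -0.14 and did not pass (limma adjusted p = 0.286 and 0.211). They were named for that role after their values were seen.

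The iron regulon of Aft1 and Aft2, the genes that Grx3 and Grx4 help to keep low, had 6 of 23 measured members lower and 3 higher, against 9.18% and 17.9% of all genes. The median log2 difference was -0.09. FIT2, for a cell wall mannoprotein that retains siderophores, gave 317, 310.0 and 316 in the mutant and 717, 594 and 623 in wild type, a log2 difference of -1.03 (limma adjusted p = 1.74e-05). ENB1, for a siderophore transporter, gave 293, 367 and 295 in the mutant and 544, 505 and 496 in wild type (-0.70, limma adjusted p = 5.09e-04). FIT2 and ENB1 were thus lower in the mutant, as was GRX4, and both passed whichever array was left out. The other members lower were FIT3 (-0.49), for a mannoprotein like Fit2, SMF3 (-0.30), for a vacuolar iron exporter, ARN2 (-0.29), for a siderophore transporter, and FET3 (-0.27), for the multicopper oxidase of iron uptake. Each of these 4 calls ended when some 1 array was left out (highest limma adjusted p from 0.0773 to 0.137). The 3 members higher in the mutant had mean signals below the background level. They were FRE2 (0.50, limma adjusted p = 0.0485) and FRE4 (0.45, limma adjusted p = 0.0125), both for ferric reductases, and HMX1, for heme oxygenase (0.52, limma adjusted p = 0.0499). FIT3, SMF3, ARN2, FET3 and FRE4 were named after their values were seen.

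On the quantile-normalized scale the same regulon had 9 members lower and 0 higher, with a median of -0.22, where 9.82% of all genes were lower and 10.5% higher with a median of -0.03. FRE2, FRE4 and HMX1 did not pass there (limma adjusted p = 0.591, 0.601 and 0.527). Members lower there but not on the deposited scale were FRE3 (-0.27), FRE5 (-0.69) and TIS11 (-0.58). Of these, FRE5 and TIS11 had mean signals below the background level. The fits with an array left out used the deposited scale. There the members lower numbered 3 without mutant replicate 1 or 3 or wild-type replicate 3, against 4.18%, 3.56% and 7.74% of all genes. Without wild-type replicate 1 they numbered 2, FIT2 and ENB1, against 4.18% of all genes. The members higher numbered 0 without mutant replicate 1 and 1 without mutant replicate 2, against 12.5% and 19.9% of all genes. FRE2 did not pass without wild-type replicate 2 or any one mutant array (limma adjusted p up to 0.13), and HMX1 not without mutant replicate 1 or 2 or wild-type replicate 1 or 3 (up to 0.167).

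Among the 5 genes for proteins of iron sensing, AFT1, AFT2, FRA1, BOL2 and YAP5, 0 passed in limma at the adjusted threshold. AFT1, for the activator itself, had the largest difference, -0.19 (limma adjusted p = 0.072), with 401 ± 13.1 in the mutant and 459 ± 25.9 in wild type. It passed with the replicate block (limma adjusted p = 0.0387) and after quantile normalization (0.0346). BOL2, for the partner of Grx3 and Grx4, had a difference of 0.15 (limma adjusted p = 0.121). Before adjustment 2 of the 5, AFT1 and BOL2, lay below 0.05 in limma. So did at least the 27.1% of all genes that passed after adjustment.

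GRX4 itself is a target of Yap5, which activates a small group of genes when iron is high. The other targets measured were CCC1, for the vacuolar iron importer, TYW1, for an iron-sulfur enzyme of transfer RNA modification, and the metallothionein gene CUP1-1. CCC1 and TYW1 had log2 differences of 0.005 and -0.06 and did not pass (limma adjusted p = 0.966 and 0.586). CUP1-1 was lower by a log2 difference of -0.25 (limma adjusted p = 0.0262), a call that ended after quantile normalization (0.289) and without any one array except mutant replicate 2 and wild-type replicate 3 (0.0751 to 0.102). Its probe set carries a suffix for sequence shared between genes, and CUP1-2 is a near-identical copy. YAP5 had a log2 difference of -0.06 on the deposited scale (limma adjusted p = 0.737) and -0.47 after quantile normalization (limma adjusted p = 0.0177), with a mean signal below the background level.

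**Figure D5:**
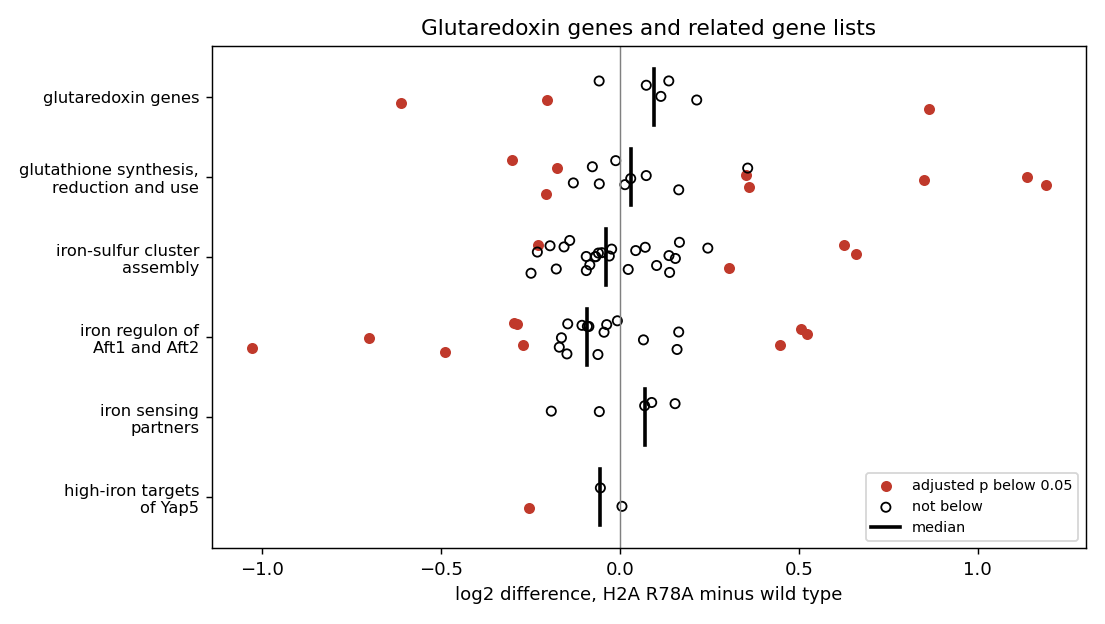
Log2 differences, H2A R78A minus wild type, of the glutaredoxin genes and of 5 related gene lists, 1 point a gene with vertical scatter for legibility only; filled red points have a limma adjusted p below 0.05 and black bars are medians. Medians lie between -0.09 (iron regulon) and 0.09 (glutaredoxin genes), with GRX8, ECM4 and GPX1 toward the right and GRX4, ENB1 and FIT2 toward the left.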

How the data were processed

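The values come from 6 arrays, each read in 1 colour. The authors deposited linear probe set intensities, for which the submitters' processing notes name MAS5 and limma without version or role. With 2% trimmed at either end, the mean intensity is 500 for all arrays, and only this value table was used. Log2 was taken with no further normalization. Of 5900 probe sets 5498 had 1 gene, 12 symbols were updated through the RefSeq gene table (assembly R64), and 402 without a gene were left out. For 47 genes the probe set with the highest mean stood for the gene, which left 5449.

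H2A R78A was set against wild type in limma 3.58.1 (R 4.3.3; lmFit, then eBayes with trend, two-sided, adjusted p below 0.05). Paralog ratios were tested with exact permutation in scipy 1.17.1. The background level is the 25th percentile of mean log2 signals, 7.86. The number of arrays limits the precision. Figures were drawn with matplotlib 3.10.9.

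Same-numbered arrays deviated together (r = 0.206, 0.383 and 0.427 across genes after removing group means, genes not being independent). Differently numbered arrays gave r from -0.449 to 0.154. The highest of these, for mutant replicate 1 with wild-type replicate 3, was close to the 0.206 of replicate 1. The replicate number was also fitted as a block. That pairing comes from the data, not from the labels.

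The members and gene lists were chosen with earlier results of these data known. Named were all members, up to 4 passing genes of each list by size of difference (2 where none passed), and the 3 genes above background most correlated with the members of the most positive and most negative difference; other names were chosen after their values were seen. BOL1 and CUP1-2 had no probe set of their own here. Alternatives were other normalizations, filters, variance models, the block and leaving out each array.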

Additional observations from a re-analysis of the deposited data

How the results depend on the processing

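GRX8 (log2 0.80 to 0.90) and GRX4 (-0.70 to -0.52) kept direction and call under all 16 alternatives. Some of these could change their adjusted p but not their differences. These were the mean of all probe sets of a gene, genes below the background level left out, no intensity trend and the replicate block. The count of glutaredoxin genes higher, 1 on the deposited scale, was 2 after quantile normalization, 3 with cyclic loess, array weights or the replicate block, and 4 with quantile normalization and the replicate block; GRX1, GRX2 and GRX7 made up the gains. Of all genes 17.9% were higher on the deposited scale, and 10.5%, 11.6%, 24.6%, 23.7% and 14.0% under those 5 settings in the same order. The count lower, 2, was 1 after quantile normalization with or without the block, with cyclic loess, with genes below the background level left out, with low values raised and without an intensity trend, and 1 to 2 with an array left out, through GRX5. The share of all genes lower, 9.18%, ran from 3.56% (without mutant replicate 3) to 11.0% (without mutant replicate 2) with an array left out, and from 5.73% (no trend) to 15.4% (quantile normalization with the block) under the other settings just named. GRX3, never called, turned sign after quantile normalization with or without the block (0.0315), with cyclic loess (0.0376) and without mutant replicate 1 (0.0032), and ran down to -0.133 with an array left out. Over the 5 related lists, with 17, 28, 23, 5 and 3 measured genes, 11 genes were higher, where 17.9% of all genes were. After quantile normalization or cyclic loess the count was 6, against 10.5% and 11.6% of all genes. With quantile normalization and the block it was 7 (14.0% of all genes). With genes below the background level left out, the lists kept 13, 22, 16, 3 and 3 genes in the same order. The count was then 3 (10.3% of all genes kept). The count was 6 to 10 with an array left out, where 12.5% to 19.9% of all genes were higher. Of these, it was 6 without mutant replicate 1 (12.5%) and 7 without mutant replicate 3 (12.7%). The list genes lower numbered 11, where 9.18% of all genes were lower. They were 7 without a trend (5.73% of all genes), 17 with the replicate block (15.7%) and 23 with quantile normalization and the block (15.4%). With an array left out they were 4 to 8, where 3.56% to 11.0% of all genes were lower. The ratio difference of GRX1 minus GRX2 ran from -0.0483 to 0.0100 with an array left out, turning sign without wild-type replicate 1. The replicate block changed no other member's call. The causes of these shifts were not tested, and the pairs' exact test cannot go below 0.1, or 0.25 when paired.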

Other observations

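The genes next to the glutaredoxin genes on the chromosomes, taken from gene order among the genes measured, were compared as well. Of 16 neighbours 3 were higher and 1 lower (limma adjusted p below 0.05), with a median log2 difference of 0.10, where 17.9% of all genes were higher and 9.18% lower. The neighbours of GRX4 were RAD24, for the clamp loader of the DNA damage checkpoint (0.16, limma adjusted p = 0.243), and TMT1, for a trans-aconitate methyltransferase (0.18, limma adjusted p = 0.160); neither passed, and RAD24 was at -0.03 after quantile normalization. GRX8 lay between YLR363W-A (0.12, limma adjusted p = 0.260) and the ribosomal protein gene RPS22B, which was lower in the mutant (-0.33, limma adjusted p = 7.58e-04; -0.19 and still passing after quantile normalization). The higher neighbours were GFD2 beside GRX1 (0.32), EMI1 beside GRX2 (1.11) and YBR013C beside GRX7 (0.80), with limma adjusted p-values of 0.0183, 0.00149 and 0.00352. After quantile normalization EMI1 was at 0.58 (limma adjusted p = 0.0240) and YBR013C at 0.48 (limma adjusted p = 0.0497). YBR013C, at 193 ± 43.8 in the mutant and 108.7 ± 3.02 in wild type, was below the background level. EMI1, a gene needed for early meiotic induction, was dim, with a signal of 70.7 ± 12.7 in the mutant and 32.7 ± 5.69 in wild type, and its call ended with low values raised to the 10th percentile, which put both groups at that floor. GFD2, at 527 ± 55.8 in the mutant and 420.3 ± 11.2 in wild type, lay above that floor and kept its difference of 0.32 there, with a limma adjusted p of 0.0652. Without mutant replicate 1 its limma adjusted p was 0.0668.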
